A study of Mus musculus with 15 samples.

Results

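The genes of the proteasome and the immunoproteasome were followed in RAW264.7 cells, a mouse line derived from a leukaemia-virus-induced tumour and used as a macrophage model, after exposure to a peptide named LCCL. Members were chosen by symbol alone: each row of the count table whose name starts with Psm, a letter from a to g and a number, without pseudogene names. That rule gave 51 of the 25639 symbols in the table, and 50 of them had enough counts to be tested. Of the 51, 48 encode core subunits, cap subunits, activators, an inhibitor or assembly factors. The other 3 (Psme2b, Psmc3ip and Psme3ip1) are symbol matches placed in none of these classes, though Psme2b is a near-identical copy of Psme2. Cells were kept with 10 µg of LCCL over 24 h, with 1 µg over 24 h, with 10 µg over 6 h or with 1 µg over 6 h, or were left untreated, with 3 libraries in each of these 5 groups. All 15 libraries carry a wild-type genotype label and the same batch label. The doses come without a volume, no vehicle group is labelled and the untreated cells have no harvest time. Effects of LCCL and of time in culture therefore cannot be told apart in the comparisons with untreated cells or between times.

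The proteasome degrades proteins that carry ubiquitin chains. Its hollow core particle, the 20S, is built of alpha rings, which gate the entry, and beta rings, which hold the catalytic sites of Psmb5 (chymotrypsin-like), Psmb6 (caspase-like) and Psmb7 (trypsin-like), and the 19S cap binds ubiquitin chains, unfolds the substrate and feeds it into the core. In cells of the immune system and after interferon gamma, Psmb8, Psmb9 and Psmb10 take the places of Psmb5, Psmb6 and Psmb7 in newly made cores, and the PA28 activator of Psme1 and Psme2 docks on them. This immunoproteasome cuts peptides that are favoured for loading on MHC class I molecules, and macrophages activated by interferon gamma are known to make it.

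Library totals ran from 19085148 to 22434642 counts, 12401 genes were tested, and the common biological coefficient of variation was 5.68%. Levels are given as CPM, counts scaled to a common library size with TMM factors, and changes are log2 fold changes ± SE from edgeR's quasi-likelihood test with Benjamini-Hochberg adjustment over all tested genes. The verbs rose and fell are kept for genes with an adjusted p under 0.05. Nothing in the labels ties the 3 libraries of a group to separate cultures, so the p-values speak only of the spread among these libraries, and that spread could be technical. All 9 macrophage markers had counts, though Mertk averaged only 0.0178 to 0.114 CPM across the groups, and their summed level was 10920 to 12000 CPM at 10 µg 24 h and 13230 to 15820 CPM at 1 µg 24 h, against 14660 to 15300 CPM in untreated cells. Lyz2 made most of that sum, and of the 8 tested markers 4 rose (Adgre1, Itgam, Fcgr1 and Cd68) and 4 fell (Lyz2, Csf1r, Cd14 and Spi1) at 10 µg 24 h. Summed markers of T cells reached 7.81 to 9.53 CPM at 10 µg 24 h and 6.99 to 7.73 CPM at 1 µg 24 h, against 3.66 to 4.33 CPM in untreated cells. Lck alone made up that T cell sum but for traces, with a mean of 8.95 CPM at 10 µg 24 h and 7.27 CPM at 1 µg 24 h, against 4.07 CPM in untreated cells, while Cd3e and Cd3g were at 0 in all 15 libraries and Cd3d and Cd2 at or near 0. Each of the fibroblast, epithelial, B cell, neutrophil and dendritic cell lists stayed below 5 CPM in every library. The part of these shifts in the results was not tested, and in bulk RNA fewer cells of a type and less RNA per cell cannot be told apart.

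Promoters are shown for the genes whose behaviour set them apart: the immunoproteasome genes Psmb9, Psmb10 and Psme1, and Psmd8 and Psmb6, subunit genes that rose at 10 µg 24 h while most others fell. The RefSeq promoter table (build GRCm38.p6, 250 bases before to 50 after the annotated start) held 43 of the 51 members. The files' own build is GRCm39, so these coordinates belong to the table and not to the counts. The windows lie at Psmb9 chr17:34187281-34187580 (minus strand), Psmb10 chr8:105938343-105938642 (minus strand), Psme1 chr14:55578244-55578543 (plus strand), Psmd8 chr7:29180624-29180923 (minus strand) and Psmb6 chr11:70525107-70525406 (plus strand). Each is printed 5′ to 3′ on the gene's strand, and capitals mark a match to one of 4 motifs searched on both strands.
Psmb9: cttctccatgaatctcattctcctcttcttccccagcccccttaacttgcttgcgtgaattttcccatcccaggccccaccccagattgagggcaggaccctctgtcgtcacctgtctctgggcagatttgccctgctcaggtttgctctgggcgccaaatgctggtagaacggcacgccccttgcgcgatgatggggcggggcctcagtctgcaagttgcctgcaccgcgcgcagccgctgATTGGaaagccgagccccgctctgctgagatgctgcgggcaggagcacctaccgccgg
Psmb10: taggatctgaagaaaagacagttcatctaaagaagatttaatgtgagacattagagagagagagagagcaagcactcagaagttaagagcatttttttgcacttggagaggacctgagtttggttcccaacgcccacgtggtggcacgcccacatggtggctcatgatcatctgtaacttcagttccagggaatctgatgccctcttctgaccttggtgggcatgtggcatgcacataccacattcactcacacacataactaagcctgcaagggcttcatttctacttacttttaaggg
Psme1: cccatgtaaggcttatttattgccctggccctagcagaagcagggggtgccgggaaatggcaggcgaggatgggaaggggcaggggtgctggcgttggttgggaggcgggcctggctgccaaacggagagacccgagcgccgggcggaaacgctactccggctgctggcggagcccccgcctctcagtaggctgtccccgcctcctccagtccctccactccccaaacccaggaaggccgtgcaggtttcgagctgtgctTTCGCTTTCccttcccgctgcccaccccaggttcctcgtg
Psmd8: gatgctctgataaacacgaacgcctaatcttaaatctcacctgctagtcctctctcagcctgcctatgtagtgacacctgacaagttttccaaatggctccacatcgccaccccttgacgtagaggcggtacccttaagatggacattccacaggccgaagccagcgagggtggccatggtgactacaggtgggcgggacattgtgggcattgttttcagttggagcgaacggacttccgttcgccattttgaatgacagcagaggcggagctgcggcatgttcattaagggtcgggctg
Psmb6: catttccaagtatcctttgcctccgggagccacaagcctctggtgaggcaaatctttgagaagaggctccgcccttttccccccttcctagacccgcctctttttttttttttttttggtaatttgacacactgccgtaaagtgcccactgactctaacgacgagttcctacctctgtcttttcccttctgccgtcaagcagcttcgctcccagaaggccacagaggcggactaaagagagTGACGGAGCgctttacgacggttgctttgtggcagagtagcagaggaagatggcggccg

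Psme1 held the core of the interferon-stimulated response element (GAAANNGAA), read on the opposite strand, at position 11, counted from 1 at the annotated start. Psmb9 held an inverted NF-Y box (CCAAT) at position -8 and Psmb6 the core of the antioxidant response element (TGACNNNGC) at position -9. Psmb10 and Psmd8 held none of the 4 motifs in this window. The interferon-stimulated core was also in the promoters of Psmb3, Psmb4, Psmd4, Psmd9 and Psmg4, which are outside the immunoproteasome set. The antioxidant core was also in those of Psmb5, Psmc6, Psmd12, Psmd9 and Psme4. The NF-Y box was in those of 15 members, Psmb9 and Psme3 (inverted, at position -14) among them. Among the 43 matched members the interferon-stimulated core was in 14.0% of promoters, against 8.56% of all 32851 promoters in the table. The NF-kB core (GGGNNTTCC) was in 2.33%, against 5.82%, the antioxidant core in 14.0%, against 12.4%, and the NF-Y box in 34.9%, against 37.4%. In these shares each member enters with its first listed promoter, while the 32851 promoters belong to 27025 genes, so the units are unlike. Matches of different motifs may overlap, and a match describes letters, not a bound site.

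At 24 h most proteasome genes fell at both doses. At 10 µg 24 h, 38 of the 50 tested members fell (76%) and 4 rose, against 34.9% and 35.4% of all tested genes, with a median log2 fold change of -0.47 over the members and 0.01 over all genes. At 1 µg 24 h, 37 fell (74%) and 2 rose, against 31.0% and 30.8% of all tested genes, with medians of -0.43 and 0.01. The 2 comparisons share their untreated libraries, so they are not independent of each other. As a share of all counts in a library, the members together took 0.346% to 0.356% at 10 µg 24 h, 0.337% to 0.352% at 1 µg 24 h, 0.426% to 0.44% at 10 µg 6 h and 0.428% to 0.441% at 1 µg 6 h, against 0.436% to 0.453% in untreated cells. Every library of the 24 h groups thus lay below every library of the other groups on that share. With library totals in place of TMM, which moved the median of all genes to 0.10 and 0.11, 34 members fell and 4 rose at 10 µg 24 h, and 33 fell and 4 rose at 1 µg 24 h. Under that scaling 5112 genes rose and 3600 fell at 10 µg 24 h, and 4923 rose and 2864 fell at 1 µg 24 h.

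**Figure D1:**
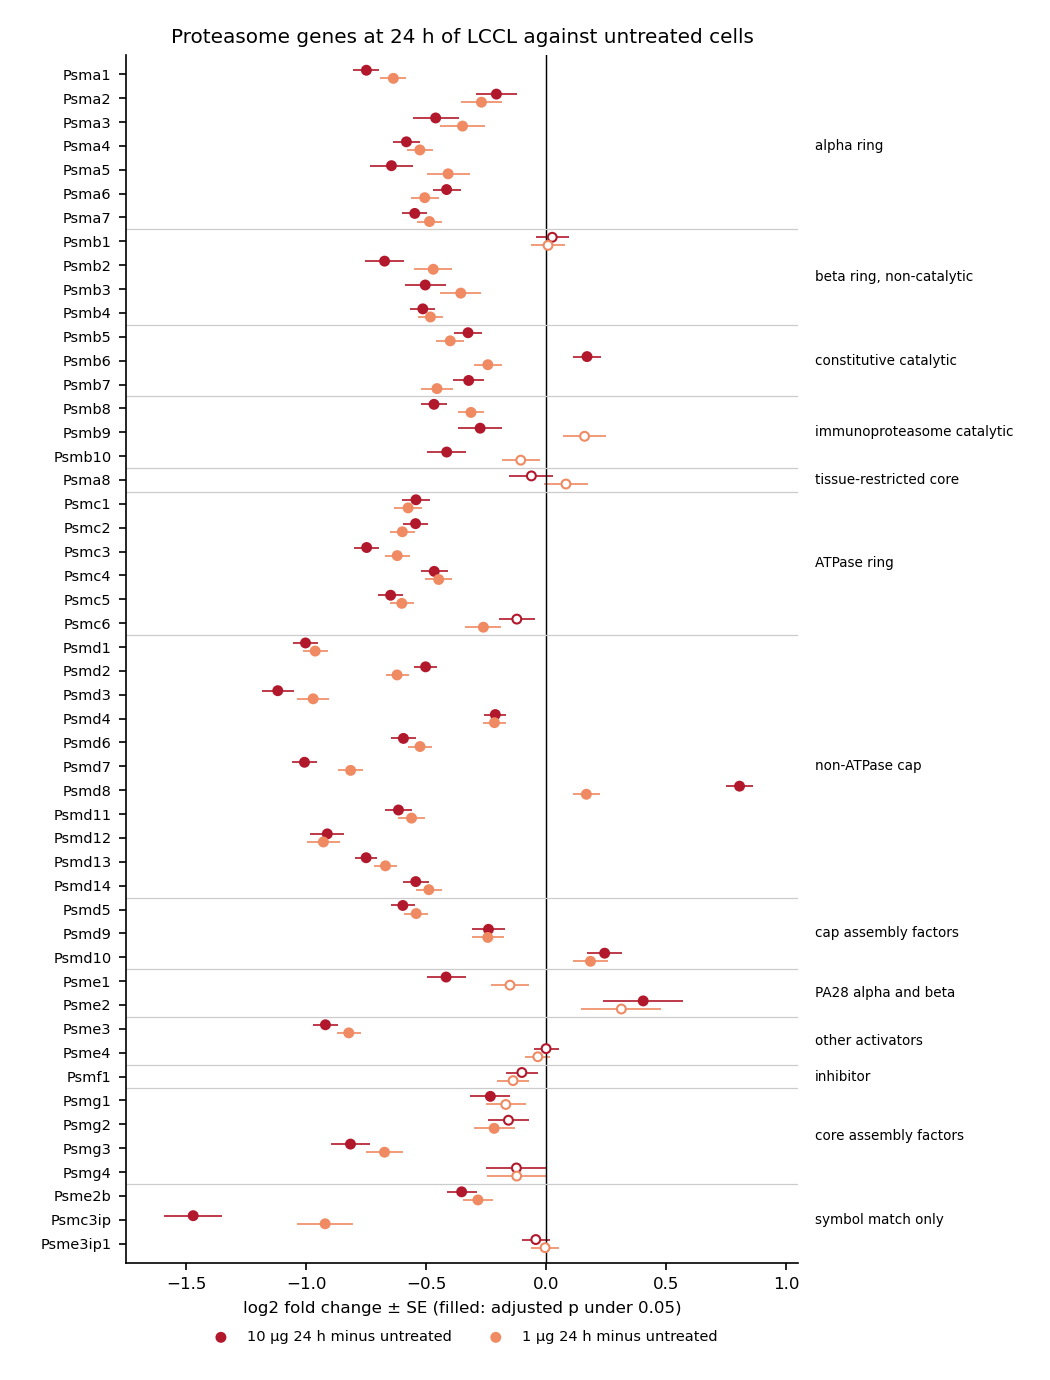
Log2 fold change ± SE of the 50 tested members by role, for 10 µg 24 h minus untreated (dark red, upper of each pair) and 1 µg 24 h minus untreated (orange, lower), 3 libraries per group; filled points have an adjusted p under 0.05. Most points lie left of 0, down to -1.12 for Psmd3 among the subunits and -1.47 for Psmc3ip, which matches by symbol only, and Psmd8 stands alone on the right at 0.81 at 10 µg.

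The alpha ring fell as a whole at 24 h. All 7 of its genes, Psma1 to Psma7, fell at both doses, between -0.75 and -0.21 at 10 µg 24 h and between -0.64 and -0.27 at 1 µg 24 h. Psma1 showed the largest fall of the ring at both doses, with 87.2 ± 2.15 CPM at 10 µg 24 h and 94.2 ± 2.33 CPM at 1 µg 24 h, against 146 ± 7.01 CPM in untreated cells (SD, n = 3). Psma2 showed the smallest, with 42.1, 48.2 and 51.0 CPM at 10 µg 24 h, against 58.9, 48.1 and 56.2 CPM in untreated cells, and these groups overlapped. Its change of -0.21 ± 0.09 (adjusted p = 0.0388) at 10 µg 24 h was lost in 5 of 13 alternatives. Of the structural beta subunits, Psmb2, Psmb3 and Psmb4 fell at both doses, whereas Psmb1, another structural beta subunit, gave 0.03 ± 0.07 at 10 µg 24 h and 0.01 ± 0.07 at 1 µg 24 h and passed at neither. Psma8, the alpha subunit of the testis core, stood at 15.2 ± 0.808 CPM at 10 µg 24 h and 15.9 ± 0.436 CPM in untreated cells and passed nowhere, and Psmb11, the thymus-specific catalytic subunit, had at most 3 counts in any library and was not tested.

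The constitutive catalytic genes did not move alike. Psmb5 had 39.1, 35.8 and 38.9 CPM at 10 µg 24 h and 37.2, 35.8 and 35.1 CPM at 1 µg 24 h, against 47.5, 47.4 and 47.6 CPM in untreated cells. Psmb5 stood at 49.1, 49.7 and 51.3 CPM at 10 µg 6 h and at 48.5, 43.5 and 47.0 CPM at 1 µg 6 h. Both 24 h groups lay below all the others. Psmb5 fell at 24 h, with log2 fold changes of -0.32 ± 0.06 (adjusted p = 1.87e-05) at 10 µg and -0.40 ± 0.06 (adjusted p = 1.55e-06) at 1 µg. Psmb7 had 43.4, 42.5 and 40.4 CPM at 10 µg 24 h and 34.9, 39.9 and 40.5 CPM at 1 µg 24 h, against 52.6, 53.0 and 52.4 CPM in untreated cells. Psmb7 stood at 51.5, 45.1 and 53.4 CPM at 10 µg 6 h and at 52.8, 49.4 and 50.04 CPM at 1 µg 6 h. Psmb7 showed the same order, with both 24 h groups below untreated cells, and gave -0.32 ± 0.07 (adjusted p = 0.000112) at 10 µg 24 h and -0.45 ± 0.07 (adjusted p = 1.70e-06) at 1 µg 24 h. Psmb6 had 184, 198 and 203 CPM at 10 µg 24 h and 129, 160.2 and 150.5 CPM at 1 µg 24 h, against 172, 178 and 169 CPM in untreated cells. Psmb6 stood at 182, 181 and 179 CPM at 10 µg 6 h and at 179, 168 and 173 CPM at 1 µg 6 h. For Psmb6 the doses parted: all 3 libraries at 10 µg 24 h lay above untreated cells and all 3 at 1 µg 24 h lay below them. Psmb6 rose by 0.17 ± 0.06 (adjusted p = 0.012) at 10 µg 24 h and fell at 1 µg 24 h, -0.24 ± 0.06 (adjusted p = 0.00097). The rise at 10 µg 24 h was lost without untreated replicate 3 or 10 µg 24 h replicate 3, with adjusted p up to 0.0622.

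Of the 5 immunoproteasome genes 4 fell and 1, Psme2, rose at 10 µg 24 h, the rise by a call that DESeq2 did not make. At 1 µg 24 h Psmb8 alone passed. Psmb8 had 50.6, 50.6 and 51.8 CPM at 10 µg 24 h and 55.1, 60.2 and 55.0 CPM at 1 µg 24 h, against 71.0, 68.8 and 71.9 CPM in untreated cells. Psmb8 stood at 70.7, 72.2 and 71.6 CPM at 10 µg 6 h and at 70.3, 63.2 and 71.6 CPM at 1 µg 6 h. Both 24 h groups were below every 6 h and untreated library. Psmb8 fell at both doses, with -0.47 ± 0.05 (adjusted p = 3.16e-08) at 10 µg 24 h and -0.31 ± 0.05 (adjusted p = 1.93e-05) at 1 µg 24 h. Psmb9 had 13.99, 13.01 and 14.1 CPM at 10 µg 24 h and 17.8, 17.7 and 20.1 CPM at 1 µg 24 h, against 15.3, 16.4 and 18.03 CPM in untreated cells. Psmb9 stood at 14.04, 13.8 and 13.5 CPM at 10 µg 6 h and at 16.3, 14.4 and 17.8 CPM at 1 µg 6 h. Psmb9 was low at 10 µg at both times, where no library reached the lowest untreated one. It fell at 10 µg 24 h, -0.27 ± 0.09 (adjusted p = 0.0103), a call lost without untreated replicate 3 and with library totals (adjusted p up to 0.0804), while 1 µg 24 h gave 0.16 ± 0.09 (adjusted p = 0.121) with overlapping libraries.

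Psmb10 had 16.3, 13.7 and 15.9 CPM at 10 µg 24 h and 18.1, 19.6 and 19.2 CPM at 1 µg 24 h, against 20.9, 19.3 and 21.0 CPM in untreated cells. Psmb10 stood at 20.6, 20.5 and 20.5 CPM at 10 µg 6 h and at 21.1, 19.01 and 18.8 CPM at 1 µg 6 h. The 3 libraries at 10 µg 24 h were the lowest of the 15. Psmb10 fell at 10 µg 24 h, -0.41 ± 0.08 (adjusted p = 7.45e-05), and gave -0.11 ± 0.08 (adjusted p = 0.257) at 1 µg 24 h. Psme1 had 19.3, 19.97 and 22.1 CPM at 10 µg 24 h and 25.4, 27.1 and 21.2 CPM at 1 µg 24 h, against 28.5, 27.9 and 25.6 CPM in untreated cells. Psme1 stood at 28.8, 27.0 and 27.0 CPM at 10 µg 6 h and at 27.3, 26.3 and 27.2 CPM at 1 µg 6 h. For Psme1, the PA28 alpha subunit, the 10 µg 24 h libraries lay below all untreated ones and those at 1 µg 24 h overlapped them. It fell at 10 µg 24 h, -0.42 ± 0.08 (adjusted p = 6.95e-05), and gave -0.15 ± 0.08 (adjusted p = 0.106) at 1 µg 24 h.

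Psme2 had 5.37, 5.598 and 4.66 CPM at 10 µg 24 h and 4.82, 5.44 and 4.38 CPM at 1 µg 24 h, against 3.12, 4.24 and 4.42 CPM in untreated cells. Psme2 stood at 5.10, 3.88 and 4.64 CPM at 10 µg 6 h and at 4.91, 3.60 and 4.76 CPM at 1 µg 6 h. Psme2, the PA28 beta subunit, was the one gene of the set that rose at 10 µg 24 h, by 0.41 ± 0.17 (adjusted p = 0.0336), with all 3 libraries above the untreated ones. DESeq2 did not call it, nor did the test without untreated replicate 1, 10 µg 24 h replicate 1 or 10 µg 24 h replicate 2 (adjusted p up to 0.194). Its transcript is 99.37% identical over 794 aligned bases to Psme2b, a copy on another chromosome that had a mean of 1891 counts a library, while Psme2 had 64 to 126. How reads were shared between them is not given in the sources used here, so the direction for Psme2 alone is uncertain. Psme2b fell at 24 h, -0.35 ± 0.06 at 10 µg and -0.28 ± 0.06 at 1 µg. Its mean was 79.3 CPM at 10 µg 24 h and 83.1 CPM at 1 µg 24 h, against 101.2 CPM in untreated cells. Psme2 averaged 5.21, 4.88 and 3.93 CPM in the same groups. Psme2b thus lost more CPM than Psme2 gained. The sum of Psme2 and Psme2b, which does not depend on how reads were split between them, was lower at both doses.

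**Figure D2:**
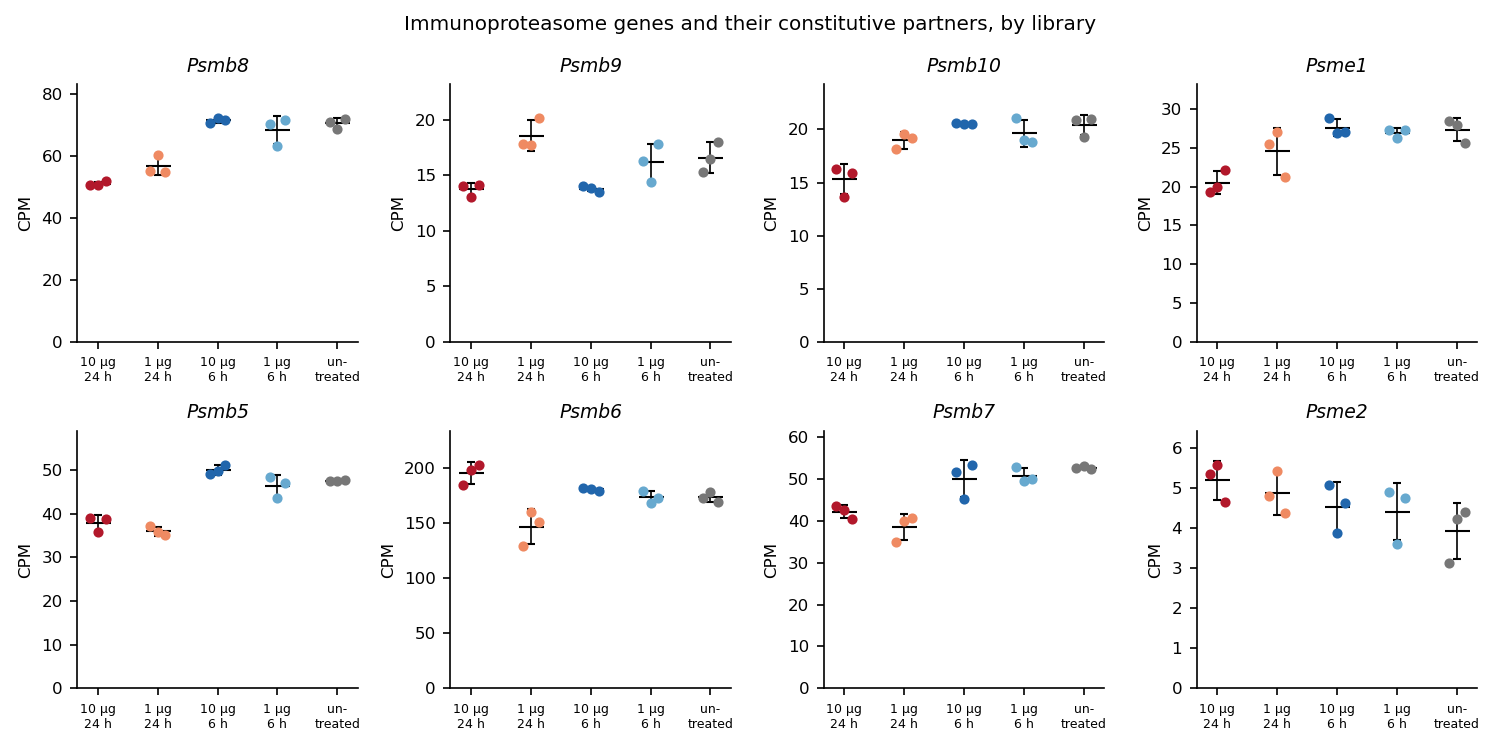
CPM in each library (points), with the mean (bar) and SD (whiskers) of 3 libraries, for the 5 immunoproteasome genes and the constitutive catalytic genes Psmb5, Psmb6 and Psmb7 in the 5 groups. Psmb8 and Psmb5 step down in both 24 h groups, Psmb10 and Psme1 are low at 10 µg 24 h, and Psmb6 is highest at 10 µg 24 h and lowest at 1 µg 24 h.

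Counted as sets, 4 of the 5 immunoproteasome genes fell and 1 rose at 10 µg 24 h (median -0.41). The 1 that rose was Psme2, a call that DESeq2 did not make, and its near-identical copy Psme2b fell. Of the 31 other 20S and 19S subunits 27 fell and 2 rose there (median -0.54), beside 34.9% of all tested genes that fell and 35.4% that rose. At 1 µg 24 h, 1 of the 5 fell and 0 rose (median -0.11), against 29 of the 31 that fell and 1 that rose (median -0.49). Of all tested genes 31.0% fell and 30.8% rose there, and 1 of 5 is no more than that share. The difference between the sets was not tested. Ratios of counts within a library, in which library scaling cancels, set each immune subunit against the one it replaces. The log2 ratio of Psmb9 to Psmb6 averaged -3.83 ± 0.11 at 10 µg 24 h, -2.98 ± 0.18 at 1 µg 24 h, -3.71 ± 0.01 at 10 µg 6 h and -3.43 ± 0.13 at 1 µg 6 h, against -3.39 ± 0.14 in untreated cells (SD, n = 3). Against untreated cells it differed by -0.44 at 10 µg 24 h, 0.41 at 1 µg 24 h and -0.32 at 10 µg 6 h, with no overlap of libraries in any of these 3. The ratio of Psmb10 to Psmb7 differed by -0.10 at 10 µg 24 h, with overlap, and by 0.35 at 1 µg 24 h, without. The ratio of Psmb8 to Psmb5 differed by -0.14 at 10 µg 24 h, without overlap, and by 0.09 at 1 µg 24 h, with overlap. A two-sided exact permutation test of 3 libraries against 3 cannot give a p below 0.1, which these 5 differences without overlap reached (0.24 after adjustment over the 12 ratios tested), so none passes a threshold of 0.05.

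**Figure D3:**
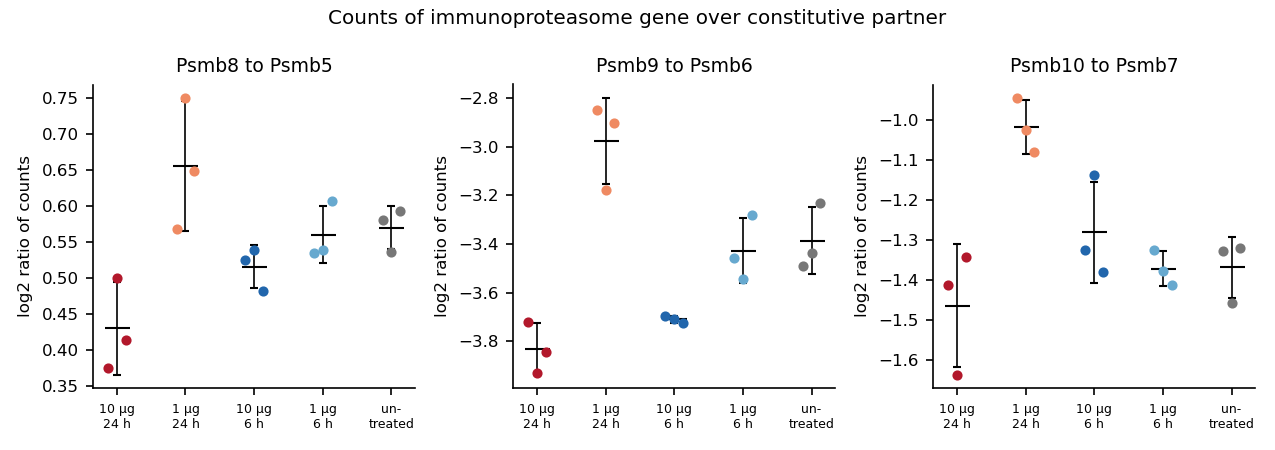
Log2 ratio of the counts of each immunoproteasome catalytic gene to those of its constitutive partner, per library (points), with the mean and SD of 3 libraries in each group; the axes do not start at 0. The ratios of Psmb9 to Psmb6 and Psmb10 to Psmb7 are highest at 1 µg 24 h, with means of -2.98 and -1.02, and lowest at 10 µg 24 h, with means of -3.83 and -1.47.

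The 19S cap held the largest falls among the subunits. All 6 ATPase genes Psmc1 to Psmc6, whose ring unfolds the substrate, fell at 1 µg 24 h and 5 of 6 fell at 10 µg 24 h, where Psmc6 gave -0.12 ± 0.07 (adjusted p = 0.153). Psmc3 had 119, 121 and 129 CPM at 10 µg 24 h and 125, 147 and 131 CPM at 1 µg 24 h, against 212, 205 and 203 CPM in untreated cells. Psmc3 stood at 189, 193 and 199 CPM at 10 µg 6 h and at 197, 199 and 197 CPM at 1 µg 6 h. Psmc3, the ATPase with the smallest p, gave -0.75 ± 0.05 (adjusted p = 2.38e-12) at 10 µg 24 h and -0.62 ± 0.05 (adjusted p = 1.92e-10) at 1 µg 24 h. Of the 11 non-ATPase subunits 10 fell and 1 rose at each dose. Psmd1 had 97.5, 95.7 and 99.7 CPM at 10 µg 24 h and 103, 102 and 96.1 CPM at 1 µg 24 h, against 187.5, 213 and 186 CPM in untreated cells. Psmd1 stood at 194, 189 and 200.3 CPM at 10 µg 6 h and at 184, 185 and 176 CPM at 1 µg 6 h. Both 24 h groups of Psmd1, a scaffold of the base, reached at most 103 CPM, while every other library had at least 176 CPM. It fell at both doses, -1.002 ± 0.05 (adjusted p = 9.58e-15) at 10 µg 24 h and -0.96 ± 0.05 (adjusted p = 8.14e-14) at 1 µg 24 h.

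Psmd7 had 79.9, 81.6 and 84.7 CPM at 10 µg 24 h and 96.7, 99.9 and 84.5 CPM at 1 µg 24 h, against 166, 169 and 160 CPM in untreated cells. Psmd7 stood at 164, 161 and 164 CPM at 10 µg 6 h and at 162, 162 and 162 CPM at 1 µg 6 h. Psmd7, a lid subunit that pairs with the deubiquitinase Psmd14, reached at most 99.9 CPM in the 24 h libraries and had at least 160 CPM in all others. The log2 fold change of Psmd7 was -1.01 ± 0.05 (adjusted p = 8.75e-15) at 10 µg 24 h and -0.81 ± 0.05 (adjusted p = 1.47e-12) at 1 µg 24 h. Psmd3 had 70.2, 69.7 and 72.0 CPM at 10 µg 24 h and 78.8, 83.0 and 72.6 CPM at 1 µg 24 h, against 155, 161 and 143 CPM in untreated cells. Psmd3 stood at 143, 134 and 149 CPM at 10 µg 6 h and at 159, 137 and 129 CPM at 1 µg 6 h. Psmd3, another lid subunit, showed the same split and the largest fall of any subunit, -1.12 ± 0.07 (adjusted p = 1.16e-12) at 10 µg 24 h and -0.97 ± 0.07 (adjusted p = 3.36e-11) at 1 µg 24 h. Psmd13 had 145, 146 and 156.5 CPM at 10 µg 24 h and 158, 165 and 149.9 CPM at 1 µg 24 h, against 249.7, 254.5 and 248 CPM in untreated cells. Psmd13 stood at 247, 239.7 and 233 CPM at 10 µg 6 h and at 249.2, 239 and 248 CPM at 1 µg 6 h. The lid subunit Psmd13 also fell without overlap, -0.75 ± 0.05 (adjusted p = 3.34e-13) at 10 µg 24 h and -0.67 ± 0.05 (adjusted p = 9.11e-12) at 1 µg 24 h. The ubiquitin receptor Psmd4 moved least among the cap subunits that fell at both doses, -0.21 ± 0.05 at 10 µg 24 h and -0.21 ± 0.05 at 1 µg 24 h, and the deubiquitinase Psmd14 lay between, -0.54 ± 0.06 and -0.49 ± 0.05.

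Psmd8, a lid subunit, went the other way. Psmd8 had 321, 347 and 362 CPM at 10 µg 24 h and 198, 229 and 235.5 CPM at 1 µg 24 h, against 197.5, 199 and 193 CPM in untreated cells. Psmd8 stood at 198, 208 and 208 CPM at 10 µg 6 h and at 194, 193 and 194 CPM at 1 µg 6 h. The 10 µg 24 h libraries were the 3 highest of the 15, and at 1 µg 24 h 1 library lay within the untreated range and the others above it. Psmd8 rose by 0.81 ± 0.06 (adjusted p = 1.96e-12) at 10 µg 24 h, 1.75-fold, and passed in all 13 alternatives tried. It rose by 0.17 ± 0.06 (adjusted p = 0.0116) at 1 µg 24 h, a call lost without 1 µg 24 h replicate 2 or 3 (adjusted p up to 0.0852).

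**Figure D4:**
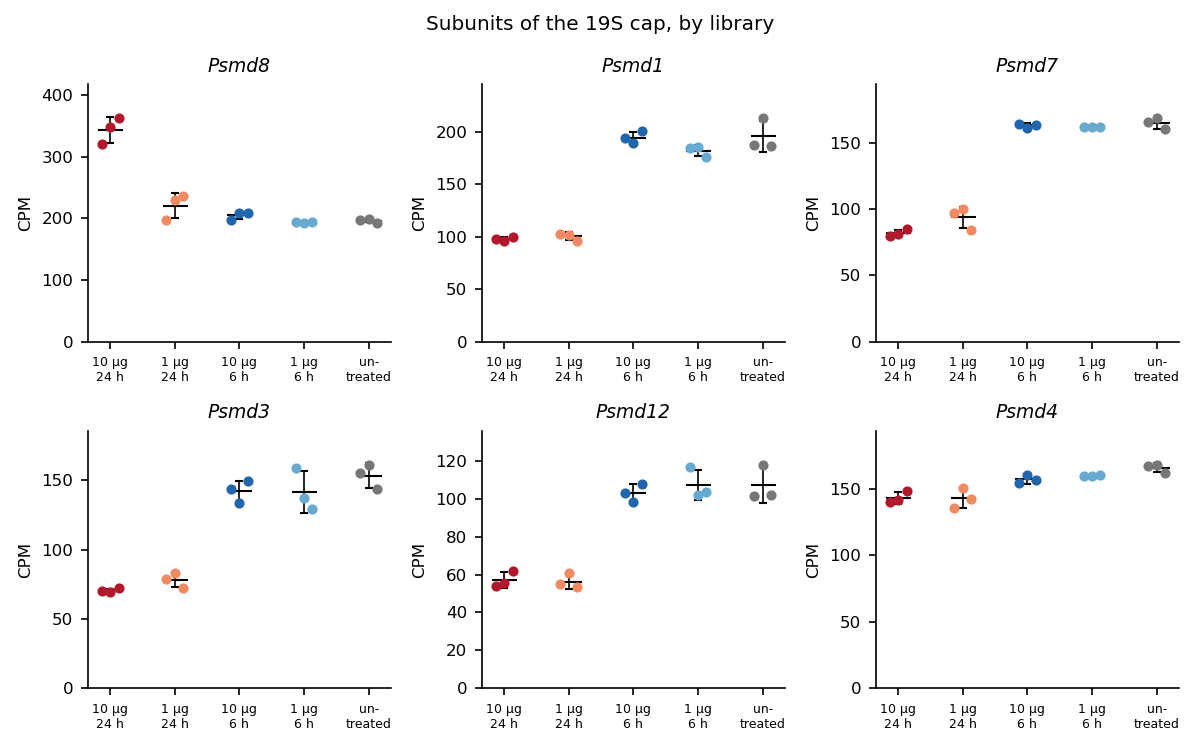
CPM in each library (points), with the mean and SD of 3 libraries, for 6 subunits of the 19S cap in the 5 groups. Psmd1, Psmd7, Psmd3 and Psmd12 are lower in both 24 h groups than in every other library, Psmd4 is lower by a smaller margin, and Psmd8 stands at 343.5 CPM on average at 10 µg 24 h, against 196 CPM in untreated cells.

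Among the activators and chaperones the pattern was mixed. Psme3 had 90.8, 101 and 105 CPM at 10 µg 24 h and 108, 108 and 101.5 CPM at 1 µg 24 h, against 193, 186 and 183.5 CPM in untreated cells. Psme3 stood at 179, 180 and 184 CPM at 10 µg 6 h and at 190.1, 188 and 184 CPM at 1 µg 6 h. Psme3, the nuclear PA28 gamma activator, fell at 24 h without overlap, -0.92 ± 0.05 (adjusted p = 2.50e-14) at 10 µg and -0.82 ± 0.05 (adjusted p = 7.22e-13) at 1 µg. Psme4, which encodes PA200, gave 0.00 ± 0.05 at 10 µg 24 h and -0.03 ± 0.05 at 1 µg 24 h, and the inhibitor gene Psmf1 gave -0.10 ± 0.07 and -0.14 ± 0.07, and neither passed. Of the chaperones that assemble the cap, Psmd5 and Psmd9 fell at both doses (-0.60 ± 0.05 and -0.24 ± 0.07 at 10 µg 24 h). Psmd10 had 36.9, 38.5 and 35.6 CPM at 10 µg 24 h and 37.8, 34.2 and 34.5 CPM at 1 µg 24 h, against 29.5, 35.1 and 29.0 CPM in untreated cells. Psmd10 stood at 36.7, 35.1 and 34.1 CPM at 10 µg 6 h and at 33.0, 32.3 and 29.0 CPM at 1 µg 6 h. Psmd10, the chaperone also named gankyrin, had its 3 libraries at 10 µg 24 h above all untreated ones, with overlap at 1 µg 24 h. It rose by 0.24 ± 0.07 (adjusted p = 0.00473) at 10 µg 24 h and 0.19 ± 0.07 (adjusted p = 0.0311) at 1 µg 24 h, and the second call was lost in 4 of 13 alternatives. Of the core assembly factors Psmg3 fell at both doses, -0.81 ± 0.08 at 10 µg 24 h and -0.67 ± 0.08 at 1 µg 24 h, Psmg1 passed at 10 µg 24 h alone (-0.23 ± 0.08), Psmg2 at 1 µg 24 h alone (-0.22 ± 0.08), and Psmg4 at neither. Of the symbol matches, Psmc3ip, whose protein acts in meiotic recombination, fell at both doses, -1.47 ± 0.12 (adjusted p = 5.89e-11) at 10 µg 24 h and -0.92 ± 0.12 (adjusted p = 1.79e-07) at 1 µg 24 h, and Psme3ip1 passed at neither dose.

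At 6 h no member passed at either dose. At 10 µg 6 h, 0 of 50 rose or fell, against 4.09% of all tested genes that rose and 1.86% that fell by edgeR. DESeq2 and limma-voom called 0 members as well, and before adjustment 6 members had an edgeR p under 0.05. Psmb9 came nearest, with -0.27 ± 0.09 (adjusted p = 0.0949) and no overlap with the untreated libraries. The median over the members was -0.01, and the range ran from -0.33 (Psmg4) to 0.21 (Psme2). Without untreated replicate 2 Psmd10 passed as higher (adjusted p = 0.0361), and in a fit of these groups alone Psmg3 passed as lower (adjusted p = 0.0483). At 1 µg 6 h edgeR called 0 members and 0% of all tested genes, and 0 members passed with DESeq2 or limma-voom; Psmb2 was the 1 member with an edgeR p under 0.05 before adjustment. Between 10 µg and 1 µg at 6 h edgeR called 0 members, against 1.85% of all tested genes higher and 0.492% lower at 10 µg, and the other tools called 0. Before adjustment 3 members had an edgeR p under 0.05 there.

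At 24 h the doses differed for 8 members, and 4 of them were immunoproteasome genes. At 10 µg, 2 members were higher (4%) and 6 lower (12%) than at 1 µg, both shares below the 16.0% and 19.3% of all tested genes. The median was -0.05 over the members and -0.01 over all genes. Psmd8 was higher at 10 µg by 0.64 ± 0.06 (adjusted p = 1.94e-09) and Psmb6 by 0.41 ± 0.06 (adjusted p = 4.23e-06). Psmb9 was lower at 10 µg, -0.44 ± 0.09 (adjusted p = 0.000461), and so were Psmb10, -0.31 ± 0.08 (adjusted p = 0.00418), Psme1, -0.27 ± 0.08 (adjusted p = 0.0126), and Psmb8, -0.15 ± 0.06 (adjusted p = 0.0307). Psmd7, -0.19 ± 0.05 (adjusted p = 0.00597), and Psmc3ip, -0.55 ± 0.13 (adjusted p = 0.00134), were lower as well. Of the 5 immunoproteasome genes 4 were thus lower at 10 µg, and of the 31 other subunits 2 were higher and 1 lower; the difference between these sets was not tested. In a fit of the 24 h groups alone 5 members passed, and Psmb8, Psme1 and Psmd7 were lost there and without 1 µg 24 h replicate 2 (adjusted p up to 0.17, 0.101 and 0.0624 over their alternatives). Leaving out 10 µg 24 h replicate 1 also ended the calls of Psmb8 and Psme1, and leaving out 10 µg 24 h replicate 2 that of Psmb8. Libraries of Psmb8, Psmb9, Psmb10, Psmb6, Psmd8 and Psmc3ip did not overlap between the doses, and those of Psme1 and Psmd7 did. Such separation was not confined to the called members. Libraries of Psma1, Psma5, Psmb2, Psmb3 and Psmd3, which did not pass, were separated between the doses as well. The share of separated genes over all tested genes was not counted.

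Comparing 24 h with 6 h within a dose uses no untreated library, so the 2 doses give separate measurements. At 10 µg 38 members were lower at 24 h and 1 was higher, against 35.2% and 34.0% of all tested genes. At 1 µg 37 were lower and 2, Psmd8 and Psmd10, higher, against 30.5% and 30.3%. The same 34 members were lower at both doses, Psmd8 was higher at both, and 43 of 50 had the same sign. Across the 50 genes, which are not independent replicates, Pearson's r between the 2 sets of log2 fold changes was 0.875 and Spearman's rho 0.89, as a description only. Medians were -0.46 at 10 µg and -0.37 at 1 µg, against 0.01 for all genes at both. With library totals, 5 members were higher and 34 lower at 10 µg, and 3 higher and 29 lower at 1 µg, beside 5132 higher and 3544 lower genes of all at 10 µg and 4908 and 2794 at 1 µg. Psmd1 gave -0.99 ± 0.05 at 10 µg and -0.86 ± 0.05 at 1 µg, Psme3 -0.87 ± 0.05 and -0.82 ± 0.05, and Psmd8 0.75 ± 0.06 and 0.19 ± 0.06. Psmb9 passed at neither dose, -0.01 ± 0.09 at 10 µg and 0.20 ± 0.09 at 1 µg.

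**Figure D5:**
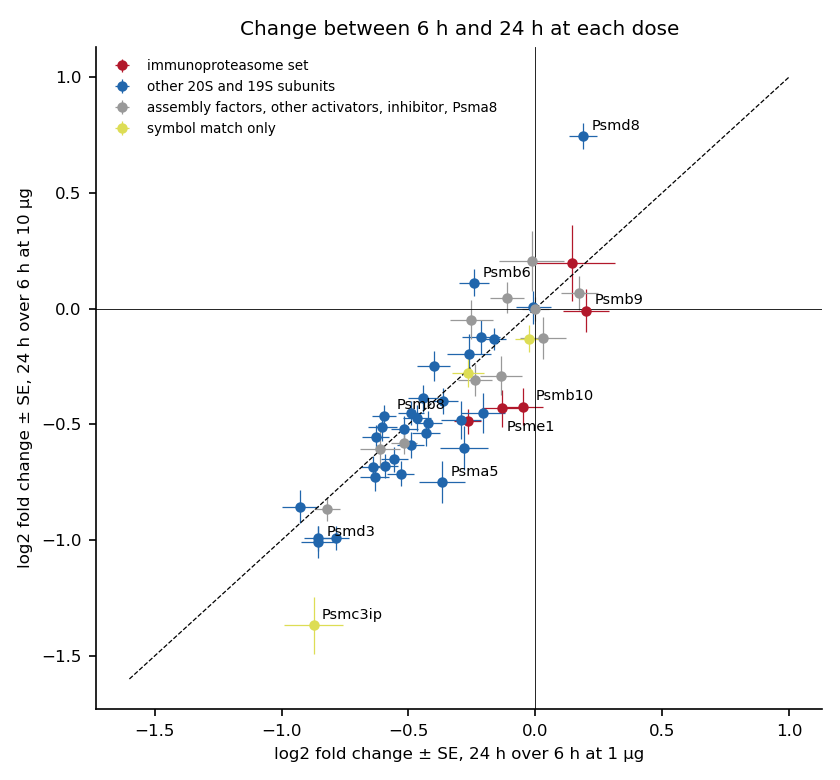
Log2 fold change ± SE of 24 h over 6 h at 10 µg (vertical axis) against the same at 1 µg (horizontal axis) for the 50 tested members, 3 libraries in each of the 4 groups; the dashed line marks equal change. Most points lie near the line in the lower left, while Psmd8 and Psmb6 sit above it and Psma5, Psmb10 and Psmc3ip below it.

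The test of that difference, the interaction of dose and time, called 6 members, 2 higher (4%) and 4 lower (8%), against 7.58% and 11.0% of all tested genes. The change from 6 h to 24 h was more positive at 10 µg for Psmd8, 0.56 ± 0.08 (adjusted p = 2.22e-05), and Psmb6, 0.35 ± 0.08 (adjusted p = 0.00361). It was more negative at 10 µg for Psma5, Psmb8, Psmb10 and Psmc3ip, at -0.38 ± 0.13, -0.22 ± 0.08, -0.37 ± 0.11 and -0.49 ± 0.17. Of these 6 only Psmd8 and Psmb6 passed in all 19 alternatives run on this test.

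Levels differed widely between members. Per kilobase of the annotated principal transcript (GENCODE M21), Psmb6 stood at 244.5 ± 12.2 CPM per kb at 10 µg 24 h and 217 ± 5.67 CPM per kb in untreated cells (SD, n = 3), the highest of the members in both groups. Psmb8 had 31.3 ± 0.417 CPM per kb at 10 µg 24 h and 43.3 ± 0.99 CPM per kb in untreated cells, and its constitutive partner Psmb5 42.2 ± 2.03 CPM per kb and 52.8 ± 0.136 CPM per kb. Psmb10 had 11.7 ± 1.08 CPM per kb at 10 µg 24 h and 15.6 ± 0.727 CPM per kb in untreated cells, and its partner Psmb7 36.3 ± 1.33 CPM per kb and 45.4 ± 0.288 CPM per kb. Psmb9 was the lowest of the immune catalytic genes, with 10.1 ± 0.451 CPM per kb at 10 µg 24 h and 12.3 ± 1.01 CPM per kb in untreated cells. Per length, Psmb8 thus lay nearest to its partner and Psmb9 farthest from Psmb6. These values depend on which transcript each gene makes here, which the counts do not show.

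Genes that work with the proteasome were read from lists. Of 28 tested partners in ubiquitin handling and proteasome assembly, 15 fell and 5 rose at 10 µg 24 h (median -0.20), and 16 fell and 3 rose at 1 µg 24 h (median -0.21). That is 53.6% lower and 17.9% higher at 10 µg 24 h, against 34.9% and 35.4% of all tested genes, and 57.1% and 10.7% at 1 µg 24 h, against 31.0% and 30.8%. Nfe2l1, the transcription factor known to raise proteasome genes when proteasome activity is short, rose to 698 ± 49.4 CPM at 10 µg 24 h and 505 ± 72.6 CPM at 1 µg 24 h, against 290.4 ± 9.86 CPM in untreated cells, log2 fold changes of 1.27 ± 0.08 (adjusted p = 2.14e-11) and 0.80 ± 0.08 (adjusted p = 3.46e-08). The segregase gene Vcp fell, -0.92 ± 0.05 at 10 µg 24 h and -0.80 ± 0.05 at 1 µg 24 h. The proteasome deubiquitinase Usp14 (-0.63 ± 0.04 and -0.47 ± 0.04) and the shuttle factors Ubqln4 (-0.86 ± 0.06 and -0.53 ± 0.05) and Ubqln2 (-0.81 ± 0.06 and -0.65 ± 0.06) fell as well. Pomp, the maturation factor of the core, fell too, -0.84 ± 0.08 at 10 µg 24 h and -0.49 ± 0.08 at 1 µg 24 h. At 10 µg 6 h 2 of the 28 partners rose (7.14%, against 4.09% of all tested genes), Zfand5 (0.23 ± 0.05) and Zfand2a (0.20 ± 0.05), both of which encode zinc-finger proteins that bind the proteasome.

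In the class I antigen-processing list, which uses the peptides the proteasome makes, 4 of 11 genes rose and 4 fell at 10 µg 24 h, and 5 rose and 5 fell at 1 µg 24 h. The 36.4% in each direction at 10 µg 24 h was close to the 35.4% higher and 34.9% lower of all tested genes, so the count sets the list apart from them in neither direction. At 1 µg 24 h the shares were 45.5% each, against 30.8% and 31.0%. Tapbpl, a homologue of the loading factor tapasin, had no count in any library at 1 µg 24 h, against 2.28 ± 0.919 CPM in untreated cells, and none in 1 of the 3 libraries at 10 µg 24 h; its fitted change rests on zeros and is not given. The class I heavy chains H2-K1 and H2-D1 rose by 0.44 ± 0.05 and 0.45 ± 0.05 at 10 µg 24 h and by 0.38 ± 0.05 and 0.29 ± 0.05 at 1 µg 24 h. The endoplasmic reticulum chaperones Calr and Pdia3 fell, with -1.61 ± 0.08 and -0.93 ± 0.06 at 10 µg 24 h and -1.26 ± 0.08 and -0.68 ± 0.06 at 1 µg 24 h. Tap1, the peptide transporter gene that lies head to head with Psmb9, gave -0.06 ± 0.06 (adjusted p = 0.381) at 10 µg 24 h and 0.19 ± 0.06 (adjusted p = 0.00768) at 1 µg 24 h. Exons of Tap1 and Psmb9 overlap on opposite strands over 212 bases in GENCODE M21, and the strand setting of the counting is not given in the sources used here, so shared reads cannot be told apart. Other exon overlaps with genes in the table included those of Psmb7 (Nek6, 405 bases), Psmc3 (Slc39a13, 215 bases), Psmd13 (Sirt3, 342 bases), Psmd1 (Gm21972, 301 bases on the same strand), Psmc3ip (Mlx, 385 bases), Psme1 (Emc9, 14 bases), Psme3ip1 (Rspry1, 61 bases), Psme2b (9930111J21Rik1, 41 bases on the same strand), Psma4 (AY074887, 114 bases) and Psmg3 (Gm26938, 280 bases on the same strand). Among 8 regulators of interferon responses and class I genes, 2 rose and 3 fell at 10 µg 24 h and 3 rose and 3 fell at 1 µg 24 h. Those shares, 25% and 37.5% at 10 µg 24 h and 37.5% each at 1 µg 24 h, lie near those of all tested genes, 35.4% and 34.9% at 10 µg 24 h and 30.8% and 31.0% at 1 µg 24 h. The interferon regulatory factors Irf7 and Irf9 were among those that fell, with -0.57 ± 0.06 and -0.30 ± 0.06 at 10 µg 24 h and -0.38 ± 0.06 and -0.25 ± 0.06 at 1 µg 24 h. The lowest log2 fold changes on the list, -0.90 at 10 µg 24 h and -0.56 at 1 µg 24 h, belonged to neither of them. Irf8, an interferon regulatory factor of myeloid cells, rose by 0.73 ± 0.06 at 10 µg 24 h and 0.76 ± 0.06 at 1 µg 24 h. Nlrc5, the class I transactivator, rose by 0.58 ± 0.07 at 10 µg 24 h and 0.42 ± 0.07 at 1 µg 24 h. At 10 µg 6 h Stat2 (0.31 ± 0.05) and Nlrc5 (0.29 ± 0.07) passed as higher.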

How the data were processed

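The deposited values are read counts, whole numbers for each gene symbol in each of the 15 libraries, without normalization. Per the labels' protocols, total RNA was extracted with TRIzol, cleaned on RNeasy columns and made into TruSeq stranded mRNA libraries, and the submitters' processing notes name GRCm39. The aligner, counter, annotation and strand setting were not given in the sources used here. Symbols without any count numbered 8141.

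Tests used edgeR 4.0.16 under R 4.3.3: filterByExpr left 12401 genes, libraries were scaled by TMM, and all 15 libraries were fitted together (glmQLFit, robust, then glmQLFTest, two-sided). Benjamini-Hochberg adjustment ran over all genes tested. DESeq2 1.42.0 and limma-voom (limma 3.58.1), other scalings, no filter, a fit of the compared groups only, a replicate block and leaving out each library were the alternatives. In a simulation of 10 µg 24 h against untreated with 12237 genes, 97 genes were changed 1.25-fold and 100 were changed 1.5-fold. Of these 50.5% and 72% were recovered, and 4.72% of calls were false. Far more genes, 8717, were called in the data for that comparison, so these rates do not carry over to the test as applied. Replicates of each group differed by more than sampling noise, with a chi-square per degree of freedom of 2.55 to 15.3, the highest for pairs with 1 µg 24 h replicate 1. Lengths, exon overlaps and copies came from GENCODE M21 (at least 95% identity over at least 200 bases), and 10 members had such a copy. Among them were Psmb5 (Gm3375, 98.9% identity over 796 bases) and Psma5 (Gm8394, 98.6% over 952 bases), and also Psmc1, Psmd2 and Psmd11. The copies of these genes have no row of their own among the counts. Whether reads from copies entered the counts of these members was not tested.

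The members and gene lists were chosen with earlier results of these data known. Every library's value is given for the 5 immunoproteasome genes, Psmb5 to Psmb7 and up to 6 called members per direction with the smallest p in the comparisons with untreated cells, and up to 4 called genes per list are named, apart from Nfe2l1, Pomp, Tap1, Tapbpl, Irf9, Zfand5 and Zfand2a, which were chosen after their values were seen, as were the 5 promoters. Of the promoter motifs planned, 1 is not reported here.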

Additional observations from a re-analysis of the deposited data

Results flagged for a closer look

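For 6 members the change between 6 h and 24 h differed between the doses by a test of the difference itself, edgeR's interaction of dose and time with Benjamini-Hochberg adjustment. Of the tested members 4% were called higher and 8% lower, no more than the 7.58% and 11.0% of all tested genes. The difference, 10 µg minus 1 µg on the log2 scale, was 0.56 for Psmd8 (adjusted p = 2.22e-05), whose level at 24 h over 6 h changed by 0.75 at 10 µg and 0.19 at 1 µg. It was 0.35 for Psmb6 (adjusted p = 0.00361), with changes of 0.11 at 10 µg and -0.24 at 1 µg. It was -0.37 for Psmb10 (adjusted p = 0.0227) and -0.22 for Psmb8 (adjusted p = 0.0471), both immunoproteasome genes, and -0.38 for the alpha subunit Psma5 (adjusted p = 0.0378). For Psmc3ip, which is no proteasome subunit, it was -0.49 (adjusted p = 0.0419). Psmb10 lost its call without 1 µg 6 h replicate 2 or 3, 1 µg 24 h replicate 2 or 10 µg 24 h replicate 2, and Psma5, Psmb8 and Psmc3ip in 8, 14 and 8 of 19 alternatives.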

How the results depend on the processing

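Counts of members called stayed within 1.5 times under every alternative except these. In fits of only the compared groups, 1 member passed at 10 µg 6 h (1487 genes in all, against 738 with all libraries fitted), 5 rather than 8 differed between the doses at 24 h, and 1044 rather than 291 genes differed between the doses at 6 h. When genes with low counts were kept, 1 gene passed at 1 µg 6 h. Leaving out single libraries gave 0 to 1 member and 390 to 469 genes at 10 µg 6 h, 111 to 163 genes between the doses at 6 h, and 2 to 8 members for the interaction of dose and time. The cause was not tested.

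Without single libraries, the log2 ratios at 1 µg 6 h minus untreated ranged from -0.0329 to 0.0026 for Psmb8 to Psmb5, from -0.1135 to 0.0374 for Psmb9 to Psmb6 and from -0.048 to 0.0207 for Psmb10 to Psmb7. Log2 fold changes changed sign in 33 single-gene settings, none of them a call. Psmb10 at 10 µg 6 h gave -0.0011 with DESeq2 size factors, -0.0021 with library totals, -0.001 with DESeq2 and -0.0286 to 0.0285 without single libraries. Psmb9 at 24 h over 6 h at 10 µg gave 3e-04 with DESeq2 size factors and with DESeq2, 0.0919 with library totals and -0.0332 to 0.0249 without single libraries. Psmb10 at 24 h over 6 h at 1 µg gave 0.0533 with library totals and -0.0864 to 0.0048 without single libraries. Psmb6 at 1 µg 6 h gave 6e-04 with the replicate block, 0.0015 with the compared groups alone and -0.0224 to 0.0235 without single libraries. Without single libraries Psme1 gave -0.0292 to 0.044 at 10 µg 6 h, and at 1 µg 6 h Psme1 gave -0.0629 to 0.0103, Psmb5 -0.0677 to 0.0084, Psmb8 -0.078 to 0.0089 and Psmb9 -0.1121 to 0.0381. Between the doses at 6 h Psmb7 gave -0.0716 to 0.0452 and Psme2 -0.0889 to 0.1374, and for the interaction Psmb5 gave -0.0728 to 0.0057 and Psme2 -0.0506 to 0.1787.

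Whether the replicate numbers pair libraries across groups is not settled. Of 30 same-number pairs across groups 0 had a correlation of deviations over 0.1 (-0.081 to 0.096), while 9 of 15 libraries correlated best with their own number. Both are hints from the data and not the design. With the replicate block 42 members passed at 10 µg 24 h and 39 at 1 µg 24 h, as without it, and 4 rather than 6 for the interaction.

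Of the member calls, 36 of 42 at 10 µg 24 h, 33 of 39 at 1 µg 24 h and 5 of 8 between doses at 24 h were made in all 13 alternatives. Protein identity between immune and constitutive subunits, planned as a description, was not run. Depth limits Psme2 (64 to 126 counts a library) most among the immunoproteasome genes.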
